A study of Homo sapiens with 3 samples.

Results

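The miR-181 family was examined in small RNA-seq libraries from Flp-In T-REx 293 cells, a line derived from the human embryonic kidney line HEK293. Its members were taken by name: the hairpins hsa-mir-181a-1, hsa-mir-181a-2, hsa-mir-181b-1, hsa-mir-181b-2, hsa-mir-181c and hsa-mir-181d, both arms of each, which made 6 of the 1873 endogenous hairpins in the table and 10 of its 2580 mature names. Of the 10 names, 8 reached a mean of 10 counts per library, as did 514 endogenous names in all. There were 3 groups with 1 library each: cells with an empty vector (control), cells expressing miR-1 and cells expressing miR-122. All cultures carried a lentiviral vector with a GFP gene under a doxycycline-inducible CMV promoter. The hairpin of miR-1 or miR-122 sat in an intron ahead of GFP, and the control vector lacked one. Transduced cells were selected with Geneticin (1 mg/mL, 6 days), and GFP was induced with doxycycline (1 ug/mL, 7 days) in the control as well. Whether clones were isolated is not given in the sources used here. No difference below has a replicate check, and each interval covers counting error within libraries, not variation between cultures.

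A miRNA gene is transcribed into a long primary transcript, from which Drosha releases a hairpin and Dicer a short duplex. An Argonaute protein retains the guide strand, which pairs with messenger RNAs mainly through its seed (bases 2 to 8), and the other strand, the passenger, is usually degraded. The miR-181 family is conserved among vertebrates and is best known from lymphocytes, in which miR-181a tunes the sensitivity of the T cell receptor, and from the brain. In humans it is encoded as 3 pairs of neighbouring hairpins. The 5p strands are called guides here, also that of hsa-mir-181c, whose 3p strand had more counts.

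The mature sequences are shown here because the reading of every count depends on where they are the same and where they differ. All 10 names were found in the RefSeq miRNA table, which is set on the GRCh38 build. Capitals mark the seed, and the 4 guide strands share theirs, ACAUUCA:
miR-181a-5p: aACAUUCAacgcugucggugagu
miR-181b-5p: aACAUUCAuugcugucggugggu
miR-181c-5p: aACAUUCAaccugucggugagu
miR-181d-5p: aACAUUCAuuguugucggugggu

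The 6 strands of the other arm have 5 seeds, since only those of the miR-181b hairpins share theirs. They are listed because they name the locus a read came from, which miR-181a-5p and miR-181b-5p do not:
miR-181a-3p (hsa-mir-181a-1): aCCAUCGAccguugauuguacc
miR-181a-2-3p (hsa-mir-181a-2): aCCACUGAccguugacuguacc
miR-181b-3p (hsa-mir-181b-1): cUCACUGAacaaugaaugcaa
miR-181b-2-3p (hsa-mir-181b-2): cUCACUGAucaaugaaugca
miR-181c-3p (hsa-mir-181c): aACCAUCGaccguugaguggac
miR-181d-3p (hsa-mir-181d): cCACCGGGggaugaaugucac

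With positions counted from 1 at the 5′ end, miR-181b-5p and miR-181d-5p differ by the single substitution C12U. An error at that base to U in miR-181b-5p, or to C in miR-181d-5p, gives a read the sequence of the other strand. How often this occurred was not analysed here. Between miR-181a-5p and miR-181b-5p the substitutions are A9U, C10U and A21G. The edit distance between miR-181a-5p and miR-181c-5p is 1, and miR-181c-5p is the shorter by 1 base (22 and 23 bases). The locus-specific strands miR-181a-3p and miR-181a-2-3p differ by U5C, C6U and U16C, the first pair of which lies in the seed. miR-181a-3p and miR-181c-3p, from different chromosomes, share a run of 15 bases but start 1 base apart, so that their seeds differ.

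The first locus (miR-181a-1/b-1) lies on chromosome 1 on the minus strand (GRCh37), with hsa-mir-181a-1 at chr1:198828173-198828282 and hsa-mir-181b-1 at chr1:198828002-198828111. Both are in an intron of the long non-coding RNA gene MIR181A1HG, transcribed in the same direction. The second locus (miR-181a-2/b-2) lies on the plus strand of chromosome 9, with hsa-mir-181a-2 at chr9:127454721-127454830 and hsa-mir-181b-2 at chr9:127455989-127456077, in an intron of the long non-coding RNA gene MIR181A2HG and, on the opposite strand, within an intron of the protein-coding gene NR6A1. The third locus (miR-181c/d) lies on the plus strand of chromosome 19, with hsa-mir-181c at chr19:13985513-13985622 and hsa-mir-181d at chr19:13985689-13985825, in an annotated intron of NANOS3. The hairpins of a pair are 61 bases apart on chromosome 1, 66 on chromosome 19 and 1158 on chromosome 9.

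Libraries held 1636834 (control), 2892684 (miR-1) and 2577292 (miR-122) counts. The induced and other synthetic hairpins made up 0.0216%, 38.1% and 24.4% of these, and were left out of the scale. All other names are called endogenous here. They include miR-3591-5p, whose log2 ratio of miR-122 to control was 10.03, and whether its counts came from the induced hairpin was not tested. Levels are given as CPM, counts per 1000000 endogenous counts after TMM scaling, in which 1 count stands for 0.532 to 0.594 CPM. miRNAs are sequenced whole, so no length correction enters, but strands can differ in ligation efficiency, and no calibration of that was available. Of the blood cell miRNAs miR-142-3p, miR-142-5p, miR-150-5p, miR-223-3p, miR-146a-5p and miR-451a, none had more than 10 counts in any library, miR-223-3p had 0 in all, and their summed level was 14.5 to 17.8 CPM.

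The miR-181 guides were expressed at a moderate level in these kidney-derived cells. Together the 5p strands had 7993 counts in control cells, 7262 with miR-1 and 7551 with miR-122. These are 0.488%, 0.405% and 0.388% of the endogenous counts. When endogenous miRNAs were grouped by the seeds in the RefSeq table, which covered 91.3% to 91.6% of the counts, the ACAUUCA group ranked 27 in the control and 28 in each of the other libraries, among 1850 seed groups. Of these groups, 798 had counts in the control, 811 with miR-1 and 804 with miR-122. The only other mature miRNA with the seed ACAUUCA, miR-4262, had 0 counts in all 3 libraries, so all counts of that seed group came from the family.

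Among the guides, miR-181a-5p was the most abundant and miR-181c-5p the scarcest in every library. In the control, miR-181a-5p made up 48.2% of the family's 5p counts (95% Wilson interval 47.1% to 49.3%), miR-181b-5p 35.1% (34.0% to 36.1%), miR-181d-5p 15.2% (14.4% to 16.0%) and miR-181c-5p 1.61% (1.36% to 1.91%). miR-181d-5p thus had 9.39 times the counts of miR-181c-5p (95% counting interval 7.82 to 11.3). Their hairpins are neighbours in the same intron, and with both arms counted hsa-mir-181d had 1217 counts and hsa-mir-181c 505. In the miR-122 library the ratio of the 5p strands was 18.6 (14.4 to 24.4), and in the miR-1 library 9.40 (7.56 to 11.8). The share of miR-181d-5p was lower in the miR-1 library, at 11.8% (11.1% to 12.5%), than in the control or the miR-122 library, where it was 15.3% (14.5% to 16.1%). The ratio of miR-181a-5p to miR-181b-5p lay close together in the libraries, at 1.37 (1.31 to 1.44), 1.37 (1.30 to 1.44) and 1.29 (1.23 to 1.35).

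**Figure D1:**
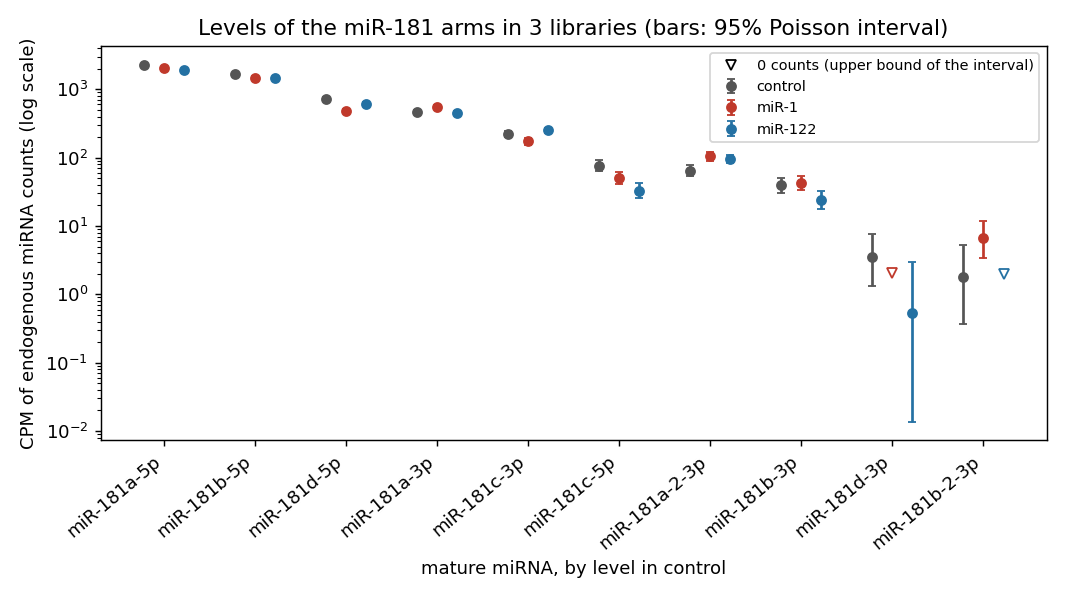
Level of each of the 10 mature miR-181 miRNAs (x axis) in CPM of endogenous miRNA counts (y axis, log scale) in the 3 libraries; points are single libraries and bars 95% Poisson intervals of counting error, with open triangles at the upper bound for 0 counts. miR-181a-5p and miR-181b-5p are the highest in every library, miR-181a-3p exceeds miR-181d-5p with miR-1 only (555 and 476 CPM), and miR-181c-5p and miR-181a-2-3p lie close together in the control (76.6 and 64.7 CPM) and apart in the others.

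In the control, the order after the guides miR-181a-5p (2286 CPM), miR-181b-5p (1663 CPM) and miR-181d-5p (719 CPM) was miR-181a-3p (470 CPM), miR-181c-3p (223 CPM), miR-181c-5p (76.6 CPM), miR-181a-2-3p (64.7 CPM) and miR-181b-3p (39.2 CPM). The passenger strand of the chromosome 1 hairpin was thus more abundant than both strands of hsa-mir-181c. Poisson intervals of neighbours in this order overlapped for miR-181c-5p (63.9 to 91.0 CPM) and miR-181a-2-3p (53.1 to 78.0 CPM) only, apart from the lowest pair, miR-181d-3p and miR-181b-2-3p. In the miR-1 library miR-181a-3p (555 CPM) stood above the guide miR-181d-5p (476 CPM), with intervals that did not overlap. There miR-181a-2-3p (105 CPM) also stood above miR-181c-5p (50.6 CPM), and with miR-122 the values were 95.7 and 33.0 CPM. miR-181c-5p and miR-181b-3p had overlapping intervals in both of these libraries.

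The next question was which locus supplied the family, read through the 3p strands. In all libraries most of these counts came from the miR-181a-1/b-1 locus on chromosome 1. In the control it had 857 of 1351 counts, or 63.4% (95% Wilson interval 60.8% to 66.0%). The miR-181c/d locus had 382 counts, or 28.3% (25.9% to 30.7%), and the miR-181a-2/b-2 locus 112 counts, or 8.29% (6.94% to 9.88%). A single strand carried each locus: miR-181a-3p with 791 counts, miR-181c-3p with 376 and miR-181a-2-3p with 109. These are shares of 3p strands, which were the minor strands of miR-181a and miR-181b but the major strand of hsa-mir-181c (376 against 129 counts). The chromosome 19 share is therefore not like for like with the other shares. The shares of the loci in the guides were not measured.

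Some of the shares differed between libraries by more than counting error, while other intervals overlapped. The shares of a library add up to the whole, so they are not independent of each other. In the miR-1 library the miR-181a-1/b-1 locus had 1075 of 1587 counts (67.7%, 65.4% to 70.0%), the miR-181a-2/b-2 locus 201 (12.7%, 11.1% to 14.4%) and the miR-181c/d locus 311 (19.6%, 17.7% to 21.6%). In the miR-122 library these were 896 of 1548 (57.9%, 55.4% to 60.3%), 180 (11.6%, 10.1% to 13.3%) and 472 (30.5%, 28.2% to 32.8%). The chromosome 19 share was therefore lowest in the miR-1 library, with an interval apart from those of both other libraries, and the chromosome 9 share was lowest in the control, also with an interval apart from both others.

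**Figure D2:**
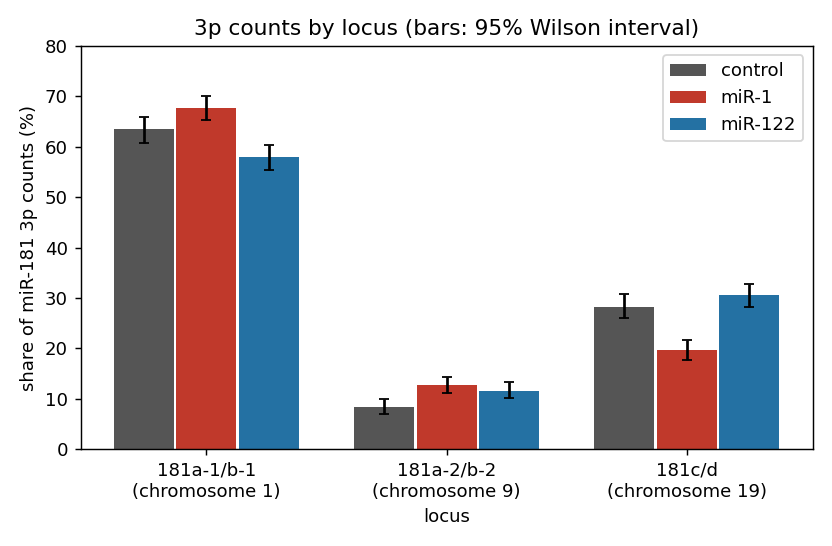
Share of the miR-181 3p counts (y axis, percent) assigned to each of the 3 loci (x axis) in each of the 3 libraries; error bars are 95% Wilson intervals. The chromosome 1 locus has 57.9% to 67.7% of the counts, the chromosome 9 locus has its lowest share in the control (8.29%) and the chromosome 19 locus in the miR-1 library (19.6%).

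The 3p level of the miR-181a-2/b-2 locus was 66.5 CPM in the control, 112 CPM with miR-1 and 95.7 CPM with miR-122. It was 1.68-fold higher than control with miR-1 (95% counting interval 1.33 to 2.14) and 1.44-fold higher with miR-122 (1.13 to 1.84). The miR-181a-1/b-1 locus had 509, 598 and 476 CPM, 1.18-fold higher (1.07 to 1.29) with miR-1 and 1.07-fold lower (0.971 to 1.17) with miR-122, the last interval including no difference. The miR-181c/d locus had 227, 173 and 251 CPM, 1.31-fold lower (1.13 to 1.53) with miR-1 and 1.11-fold higher (0.965 to 1.27) with miR-122. Comparisons with control share the control library and are not independent of each other.

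The ratio of the 3p strands of the chromosome 1 and chromosome 9 copies of miR-181a could be set beside other miRNAs. These are made from several hairpins and have locus-specific opposite strands. The 3p strands of miR-181a are minor strands that differ in sequence, so their ratio need not be that of the copies. miR-181a-3p had 7.26 times the counts of miR-181a-2-3p in the control (5.93 to 8.95), 5.28 times in the miR-1 library (4.52 to 6.20) and 4.73 times in the miR-122 library (4.02 to 5.58). On the log2 scale the ratio was 0.46 lower than control with miR-1 (95% interval of the difference -0.82 to -0.09) and 0.62 lower with miR-122 (-0.99 to -0.25). Only 4 other miRNAs allowed the same reading, miR-16-5p, miR-24-3p, miR-30c-5p and miR-450a-5p. Their differences were at most 0.30 in size with miR-1, smaller than that of miR-181a, while with miR-122 2 of the 4 had larger ones. For miR-16 the difference with miR-122 was -0.69 (-1.11 to -0.28), and for the other 3 the intervals included 0. With miR-1 the intervals of all 4 included 0, from the narrowest, that of miR-16 (-0.42 to 0.32), to those of miR-24 (-0.78 to 1.37) and miR-450a (-1.30 to 1.64), whose strands had 50 counts or fewer.

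The deposited table also divides the guide counts among hairpins, and for miR-181a-5p this division holds no information on the loci. Its parts were equal in each library, at 1925.5 counts for hsa-mir-181a-1 and the same for hsa-mir-181a-2 in the control. For miR-181b-5p the parts were unequal: hsa-mir-181b-1 and hsa-mir-181b-2 had 1203 and 1599 counts in the control, 1193 and 1474 with miR-1, and 1232.5 and 1535.5 with miR-122. The chromosome 9 copy was thus listed with 55.3% to 57.1% of miR-181b-5p, whereas of the 3p strands miR-181b-2-3p had 3, 12 and 0 counts against 66, 77 and 45 of miR-181b-3p. The genomic letters after the guides show where reads that run past them could be told apart. Here the guide is in lower case and the 6 bases that follow it in the hairpin are in capitals (GRCh37, read 5′ to 3′ on the strand of the gene):
hsa-mir-181a-1, chr1:198828231-198828259, minus strand: aacattcaacgctgtcggtgagtTTGGAA
hsa-mir-181a-2, chr9:127454759-127454787, plus strand: aacattcaacgctgtcggtgagtTTGGGA
hsa-mir-181b-1, chr1:198828048-198828076, minus strand: aacattcattgctgtcggtgggtTGAACT
hsa-mir-181b-2, chr9:127456004-127456032, plus strand: aacattcattgctgtcggtgggtTTGAGT

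After the guide, the miR-181a copies have 4 identical bases, and the miR-181b copies 1. A read of miR-181b-5p that runs 2 bases past the guide can therefore fit a single hairpin, which such a read of miR-181a-5p cannot. Ahead of the guide, the miR-181a copies have 1 identical base and the miR-181b copies 2, so reads that start early could also differ. The ends of the reads were not analysed here, and their part in the unequal division was not tested.

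Arm usage set miR-181c apart from the other members. In the control, miR-181c-3p had 376 counts and miR-181c-5p 129, so that the 3p strand made up 74.5% of the hairpin's counts (95% Wilson interval 70.5% to 78.1%). In the miR-1 library it had 311 of 402 counts, or 77.4% (73.0% to 81.2%). In the miR-122 library it had 471 of 533, or 88.4% (85.4% to 90.8%), an interval apart from those of the other libraries. The strand with the family seed was thus the minor product of hsa-mir-181c in all 3 libraries. For miR-181a and miR-181b, each with its hairpins summed, and for miR-181d the 5p strand prevailed. The 3p strands made up 18.9% of miR-181a counts in the control, 24.5% with miR-1 and 22.4% with miR-122. They made up 2.40%, 3.23% and 1.60% of miR-181b counts. With only the highest hairpin counted for a guide, these shares were 31.9%, 39.4% and 36.6% for miR-181a and 4.14%, 5.69% and 2.85% for miR-181b. For miR-181a that guide count is the equal part described above. Arm use of each single hairpin of miR-181a and miR-181b was therefore not measured. Of miR-181d, the 3p strand had 6 counts of 1217 in the control, 0 of 855 in the miR-1 library and 1 of 1155 in the miR-122 library. The floor of 3 counts stands for 1.67 CPM in the miR-1 library.

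**Figure D3:**
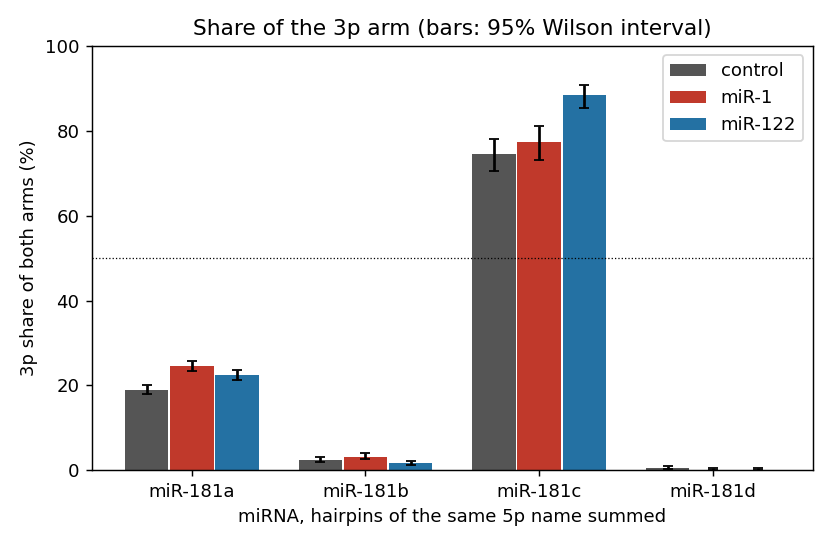
Share of the 3p strand in the counts of both arms (y axis, percent) for miR-181a, miR-181b, miR-181c and miR-181d (x axis) in the 3 libraries, with the hairpins of miR-181a and of miR-181b summed; error bars are 95% Wilson intervals and the dotted line marks 50%. Only miR-181c lies above the line, at 74.5% to 88.4%, with its highest value in the miR-122 library.

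A larger 3p than 5p count was common among other hairpins. Of 113 hairpins whose arms are both listed for that hairpin alone with a mean of 10 counts or more, the 3p strand was higher in 52 in the control, and 36 of them had a higher 3p to 5p ratio than hsa-mir-181c. The ratio of hsa-mir-181c differed from control by 1.17-fold with miR-1. With miR-122 it was 2.59-fold higher than control and 2.22-fold higher than with miR-1. A difference of at least 1.5-fold in either direction was found for 18.6% of the 113 hairpins with miR-1 to control, 38.9% with miR-122 to control and 26.5% with miR-122 to miR-1. Larger differences than that of hsa-mir-181c were found for 66, 6 and 6 hairpins.

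The last question was how the members' levels compared between libraries. The summed guides were 4745 CPM in the control, 4041 CPM in the miR-1 library and 4015 CPM in the miR-122 library, 1.17-fold lower (95% counting interval 1.14 to 1.21) and 1.18-fold lower (1.15 to 1.22) than control. The miR-1 and miR-122 libraries differed from each other by 1.01-fold (0.975 to 1.04). The summed 3p strands were 802, 883 and 823 CPM, 1.10-fold higher with miR-1 (1.02 to 1.19) and 1.03-fold higher with miR-122 (0.953 to 1.10). Summed guides were thus lower than control in both, and summed 3p strands were not. The 3p sum includes miR-181c-3p, the major strand of its hairpin. For comparison, the summed let-7 guides differed from control by 1.04-fold lower and 1.08-fold higher, and the summed miR-30 guides by 1.06-fold and 1.17-fold lower.

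miR-181a-5p had 3851 counts in control, 3649 with miR-1 and 3567 with miR-122, or 2286, 2031 and 1896 CPM. It was highest in the control, 1.13-fold lower with miR-1 (1.08 to 1.18) and 1.21-fold lower with miR-122 (1.15 to 1.26). miR-181b-5p had 2802, 2667 and 2768 counts, 1.12-fold lower with miR-1 (1.06 to 1.18) and 1.13-fold lower with miR-122 (1.07 to 1.19). These values lay inside the spread of all endogenous miRNAs, whose log2 ratios had a scaled median absolute deviation of 0.31 with miR-1 and 0.52 with miR-122. That spread covers all 514, many of them far scarcer and with more counting error, and the spread of abundant miRNAs alone is not given here. Among the 105 other miRNAs averaging 1000 counts or more, the 3 whose pair of log2 ratios to control lay nearest to that of miR-181a-5p (-0.17 and -0.27) were miR-29a-3p (-0.21 and -0.27), let-7g-5p (-0.18 and -0.22) and miR-10a-3p (-0.13 and -0.21), a likeness over 3 libraries only.

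With miR-1 the guides of the chromosome 19 locus had the lowest ratios among the guides, and with miR-122 miR-181c-5p did. miR-181d-5p had 1211, 855 and 1154 counts (719, 476 and 614 CPM), 1.51-fold lower than control with miR-1 (1.38 to 1.65) and 1.17-fold lower with miR-122 (1.08 to 1.27). Its low value belonged to the miR-1 library. miR-181c-5p had 129, 91 and 62 counts (76.6, 50.6 and 33.0 CPM), 1.51-fold lower with miR-1 (1.147 to 1.9998) and 2.31-fold lower with miR-122 (1.70 to 3.20). Its partner miR-181c-3p had 376, 311 and 471 counts (223, 173 and 250 CPM), 1.29-fold lower with miR-1 (1.107 to 1.504) and 1.12-fold higher with miR-122 (0.978 to 1.29). With miR-1, these 3 strands of the locus were thus all lower than control. With miR-122, miR-181c-5p was lower than control while the interval of miR-181c-3p included no difference, although both come from the same hairpin.

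Of the passengers, miR-181a-2-3p had 109, 189 and 180 counts (64.7, 105 and 95.7 CPM), 1.62-fold higher than control with miR-1 (1.28 to 2.08) and 1.48-fold higher with miR-122 (1.16 to 1.89). It was the only member higher than control in both libraries with an interval that excluded no difference. miR-181a-3p had 791, 998 and 851 counts (470, 555 and 452 CPM), 1.18-fold higher with miR-1 (1.08 to 1.30) and 1.04-fold lower with miR-122 (0.941 to 1.14). miR-181b-3p had 66, 77 and 45 counts (39.2, 42.8 and 23.9 CPM), 1.09-fold higher with miR-1 (0.777 to 1.54) and 1.63-fold lower with miR-122 (1.10 to 2.45). miR-181b-2-3p, with 3, 12 and 0 counts, and miR-181d-3p, with 6, 0 and 1, were too scarce for a ratio to be read.

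**Figure D4:**
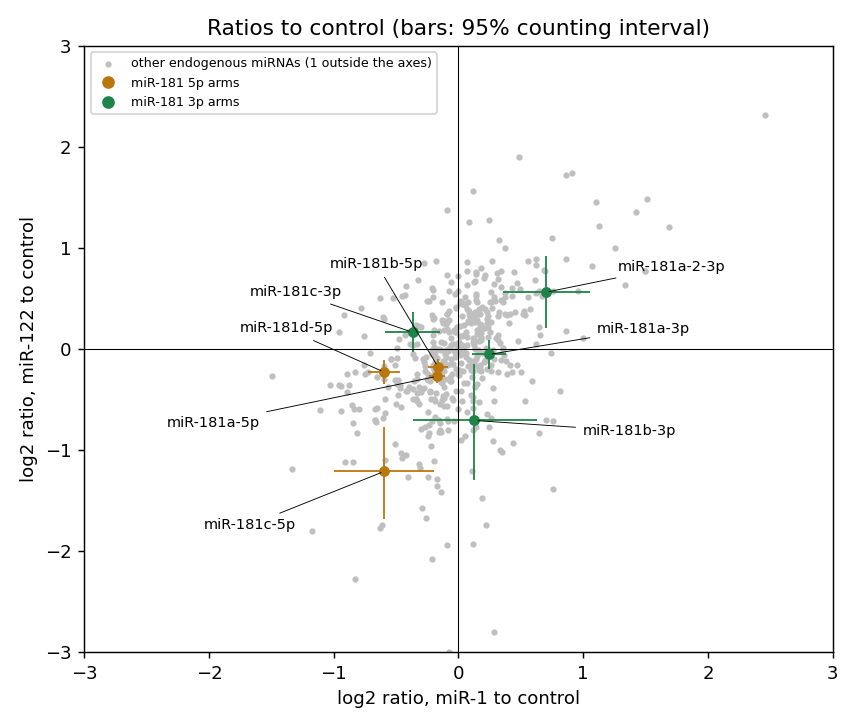
Log2 ratio of miR-1 to control (x axis) and of miR-122 to control (y axis) for 514 endogenous miRNAs, with the 8 members that reached a mean count of 10 in colour (5p and 3p strands) and all others in grey; bars are 95% counting intervals, and 1 miRNA lies outside the axes. The guides lie below 0 on both axes, miR-181a-2-3p lies above 0 on both (0.70 and 0.56), and the axes share the control library.

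Read against all endogenous miRNAs, few members stood apart. At least 1.5-fold differences from control with miR-1 were found for 1 higher and 2 lower of the 8 members, miR-181a-2-3p against miR-181c-5p and miR-181d-5p, where 7.39% and 9.34% of the 514 miRNAs passed that limit. The lower pair lay just past it, with log2 ratios of -0.59 and -0.60. With miR-122, 0 members were higher and 2 lower, miR-181b-3p and miR-181c-5p, where 11.3% and 15.8% passed. From miR-1 to miR-122 the numbers were 0 and 2, again miR-181b-3p and miR-181c-5p, and 9.14% and 14.0% of all passed. Among the 263 miRNAs averaging 100 counts or more, where counting error is smaller, 2.28% were higher and 4.18% lower with miR-1, and of the 6 members in that class miR-181a-2-3p and miR-181d-5p were 1 each. With miR-122 the shares were 6.46% and 9.89%, and no member passed. In rank, miR-181a-2-3p had 24 of 514 miRNAs above it with miR-1 and 64 with miR-122, and miR-181c-5p had 44 and 19 below it.

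The counting interval of the ratio excluded 1 for 7 of the 8 members with miR-1 to control, 6 with miR-122 to control and 6 with miR-122 to miR-1. The same held for 34.4%, 47.1% and 39.3% of all 514 miRNAs. Such an interval narrows as counts rise, and 6 of the 8 members averaged 100 counts or more, as did 263 of the 514. The shares are therefore not like for like. The median log2 ratio of the 8 members was -0.17 with miR-1 and -0.20 with miR-122, with 5 and 6 members below 0, beside medians of 0.00 and -0.04 over all 514. The strands of a hairpin and the hairpins of a locus share a transcript, so the members are not independent of each other.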

How the data were processed

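Small RNA-seq was available for 3 cultures of Flp-In T-REx 293 cells, 1 library per group. The deposited estimated counts were made by the authors with miRDeep2: adapters were trimmed, reads shorter than 18 nt removed, identical reads collapsed, and the rest mapped on miRBase release 21 hairpins with the synthetic hairpins added, a read of several hairpins being split between them. The number of mismatches allowed is not given in the sources used here. The submitters' processing notes name hg19, the build of the GRCh37 annotation (GENCODE) used for coordinates. RPM values deposited by the authors, scaled to the whole library with the induced miRNAs, matched the counts within 0.00652 and were not used further. The pooled columns include other libraries and were used only in the closing section.

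Counts were summed per mature name. The 5 synthetic hairpins were set aside, and names with a mean count of at least 10 were scaled by TMM (edgeR 4.0.16, R 4.3.3). Log2 ratios used a pseudocount of 0.5. Ratios have 95% exact conditional (Clopper-Pearson) intervals on rounded counts, levels exact Poisson intervals and shares Wilson intervals (SciPy 1.17.1). Reads carried no molecular identifiers, so intervals and floors (3 counts for a count of 0) cover counting error only. Differences of log2 ratios between strands have intervals from the normal approximation to counting error. With 1 library per group no p-value was computed, and "at least 1.5-fold" describes libraries, not conditions. The scaling and the ratios were tested on simulated counts with known folds and Poisson error only. Such a test cannot check variation between cultures. Members and lists were chosen with earlier results of these data known. The rule for named miRNAs took all mature members, other miRNAs with their seed, the 3 nearest patterns, let-7 and miR-30 guides, multi-copy miRNAs with locus-specific opposite strands, and a blood cell list. miR-3591-5p was named outside that rule, and the comparison with the arms of 113 hairpins was added after values had been seen. Alternatives covered scaling, count filter, pseudocount, fold limit, the combining of hairpins and the strands that stand for a locus.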

Additional observations from a re-analysis of the deposited data

Results flagged for a closer look

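The authors' pooled total held 5718 counts of miR-181 5p strands beyond the sum of the 3 libraries. It drew attention as signal in a column that the comparisons do not use, and above the 3 counts that a count of 0 allows. The libraries behind it were not analysed here. Within these further counts miR-181a-5p made up 45.3% of the 5p strands and miR-181c-5p 1.40%, miR-181c-3p made up 81.8% of the hsa-mir-181c counts, and the chromosome 1 locus had 61.6% of the 1249 3p counts.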

How the results depend on the processing

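No paired analysis was possible because every group was a single library. Over 69 results, 294 alternative values were computed, of which 216 stayed within the limits set (95% counting intervals, or 1.5 times for counts of miRNAs), 68 moved and 10 changed direction. Scaling to all counts with the induced miRNAs shifted the median log2 ratio of all endogenous miRNAs by -0.73 (miR-1 against control), -0.50 (miR-122 against control) and 0.23 (miR-122 against miR-1), and members moved with it. Under it the summed guides had log2 ratios of -0.96, -0.74 and 0.22 in that order, the last reversed, and the summed 3p strands -0.59, -0.46 and 0.13, all reversed. Further reversals under that scaling were, for miR-1 to control, miR-181a-3p (-0.49), miR-181a-2-3p (-0.030) and miR-181b-3p (-0.60), for miR-122 to control miR-181c-3p (-0.33), and for miR-122 to miR-1 miR-181a-5p (0.13) and miR-181b-5p (0.22). This scaling moves all miRNAs of a library alike, so positions relative to the median stay. Scaling to endogenous totals gave -0.33 (miR-122 to control) and -0.064 (miR-122 to miR-1) for the summed guides, and taking a miRNA's highest hairpin gave -0.30 (miR-1 to control).

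Of the calls of at least 1.5-fold, miR-181a-2-3p with miR-1, and miR-181b-3p and miR-181c-5p with miR-122 to control, passed under the other scalings on endogenous counts, the pseudocount of 5 and the highest hairpin. The count filters here set which miRNAs entered TMM, with all 8 members kept. miR-181c-5p with miR-1 to control missed the limit with a pseudocount of 5 and with TMM factors from unfiltered miRNAs or from those averaging 100 counts or more, and miR-181d-5p with the last of these, at a log2 ratio of -0.56. With a pseudocount of 5, miR-181c-5p also missed the limit from miR-1 to miR-122. Scaled to all counts, 6 members were lower with miR-1 and 5 with miR-122. Taking 5p parts as the table divides them in place of 3p strands gave the miR-181a-1/b-1, miR-181a-2/b-2 and miR-181c/d loci 39.1%, 44.1% and 16.8% in control, 41.6%, 45.4% and 13.0% with miR-1, and 39.9%, 43.95% and 16.1% with miR-122. These parts include the equal division of miR-181a-5p, so the order of the chromosome 1 and 9 loci in them rests on the division of miR-181b-5p. By the highest hairpin, miR-181a-5p made up 39.6%, 43.0% and 39.3% of the 5p counts, by construction. Numbers of miRNAs past the limit, higher and lower, were 11 and 6 for miR-1 against control, 17 and 33 for miR-122 against control, and 16 and 28 between miR-122 and miR-1 at 2-fold, 7 and 7, 19 and 26, and 13 and 21 among miRNAs averaging 100 counts or more with TMM factors recomputed from them, and 7 and 349, 15 and 239, and 105 and 41 when scaled to all counts. A pseudocount of 5 gave 21 and 30 for miR-1 to control. Depth limits miR-181b-2-3p and miR-181d-3p, at 12 counts or fewer.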
